A study of Mus musculus with 2 samples.

Results

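The survival motor neuron (SMN) complex was examined through 9 genes that encode its subunits in the mouse: Smn1, Gemin2, Ddx20, Gemin4, Gemin5, Gemin6, Gemin7, Gemin8 and Strap. They were picked by symbol, taken from the transcript names of the deposited table. They account for 9 of the 45578 genes and 39 of the 109463 transcripts in that table, and Smn1 alone has 9 annotated transcripts. The measurement was ribosome profiling of brain polysomes, in which short mRNA fragments shielded by ribosomes (footprints) are sequenced and counted. Brains came from 2 mice at postnatal day 5, both labelled as controls, of the genotype Smn+/-; SMN2tg/0 (heterozygous mice of the Taiwanese line) on a congenic FVB background. By this genotype every animal had a single intact copy of mouse Smn and a human SMN2 transgene, and the labels name neither the promoter of the transgene nor its copy number. Mice of other genotypes were not analysed here. The samples form 1 group of 2 biological replicates, so the values describe levels within a control brain and the spread between 2 animals.

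The SMN complex assembles the protein core of the small nuclear ribonucleoproteins (snRNPs), the RNA-protein particles of the spliceosome. In the cytoplasm it receives Sm proteins, places them as a ring around a small nuclear RNA, and the finished particle returns to the nucleus. SMN itself forms oligomers and binds Gemin2, which holds Sm proteins before the ring closes. Gemin5 recognises the small nuclear RNA, and Ddx20 (also called Gemin3) is a DEAD-box helicase that binds Gemin4. Gemin8 joins SMN to the Gemin6 and Gemin7 subunits, which have Sm-like folds, and to Strap (also called Unrip), a WD-repeat protein that also acts in transforming growth factor beta signalling. Loss of SMN causes spinal muscular atrophy, in which motor neurons degenerate, and mice of the Taiwanese line are used to model that disease.

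Footprint counts summed over all transcripts were 1866831 for replicate 1 and 5261878 for replicate 2, and the 9 genes received 524 and 1507 of them. A fragment counted on several transcripts would enter these sums more than once. Marker genes of the labelled tissue were present. The 5 neuronal markers summed to 4761 and 3698 CPM (counts per 1000000 footprints of the library) in replicates 1 and 2, and the 4 astrocyte and radial glia markers to 1770 and 1548 CPM. Oligodendrocyte lineage markers summed to 619 and 784 CPM and microglial markers to 170 and 156 CPM, with none of these 16 brain markers at 0. All 4 liver markers were listed at 0 in both libraries. Of the 4 skeletal muscle markers, Acta1 had 140 and 264 footprints and can share fragments with other actins, while Ckm, Myh3 and Tnnt3 together had 5 and 34. In whole brain, fewer cells that express a gene and less of its RNA per cell cannot be told apart.

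Levels were compared between genes per length, as CPM per kilobase of the longest annotated coding sequence, called density here. All transcripts of a gene were summed. How a fragment that matches several transcripts was counted is not given in the sources used here, and repeated counting would raise the sums and narrow the intervals of genes with many like transcripts. Strap had the highest density of the 9 genes and Gemin4 the lowest, and Smn1 ranked second. Mean density fell in the order Strap, Smn1, Gemin7, Gemin6, Gemin8, Gemin2, Ddx20, Gemin5 and Gemin4. Replicate 2 gave this same order, and replicate 1 differed from it only in that Ddx20 stood above Gemin2. Of the 8 neighbouring pairs in the order, only Strap with Smn1 and Gemin5 with Gemin4 had exact Poisson 95% intervals that were apart in both libraries. Of all 36 pairs of members, 26 had intervals apart in both libraries. Intervals cover counting error only and take each count as an independent molecule, so copies made by PCR would leave them too narrow.

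**Figure D1:**
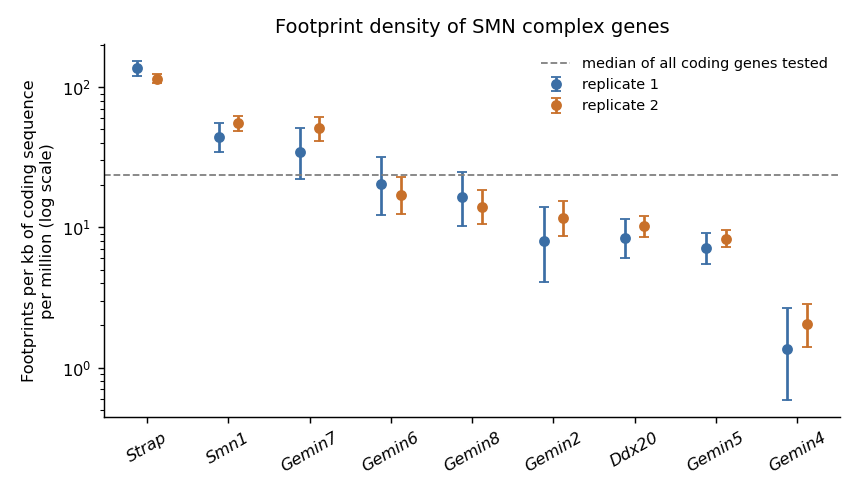
Footprint density of the 9 genes (CPM per kilobase of coding sequence, log axis) in replicate 1 (blue) and replicate 2 (orange), with exact Poisson 95% intervals and the median of all coding genes tested as a dashed line at 23.5. Strap (136 and 115), Smn1 (43.9 and 55.5) and Gemin7 (34.3 and 50.7) lie above the line, and Gemin4 (1.35 and 2.03) lies far below the other genes.

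Smn1 (ENSMUSG00000021645; chromosome 13, 100123205 to 100137699) has a longest coding sequence of 867 nucleotides. Coordinates here and below are those of RefSeq on GRCm38.p6, a later patch of the build GRCm38.p4 named in the submitters' processing notes. Its density was 43.9 in replicate 1 (95% interval 34.3 to 55.3) and 55.5 in replicate 2 (48.8 to 62.7), from 71 and 253 footprints. The mean of 49.7 ± 8.20 (SD, n = 2) was 2.12 times the median of 23.5 over the 13317 coding genes tested and lay at percentile 70.2 of them. Percentiles and medians of coding genes, here and below, are those of genes whose count averaged 10 or more. Coding genes with fewer footprints are left out. With protein-coding transcripts only, Smn1 density was 26.8, or 1.46 times a median of 18.4 counted in that way. With the highest transcript only it was 19.2, or 1.74 times a median of 11.0. SMN2 transcripts of the transgene resemble mouse Smn1 in sequence, and how far their footprints add to this value was not tested.

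Gemin2 (ENSMUSG00000060121; chromosome 12, 59013391 to 59028470), the direct partner of SMN in the complex, has a coding sequence of 810 nucleotides, close in length to that of Smn1. It had 12 footprints in replicate 1 and 50 in replicate 2. These counts give densities of 7.94 (4.10 to 13.9) and 11.7 (8.71 to 15.5), with a mean of 9.83 ± 2.68 (SD, n = 2) at percentile 27.3 of coding genes. Both libraries placed Gemin2 below Smn1 with no overlap of intervals. Within a library, where the scaling cancels, Smn1 exceeded Gemin2 5.53-fold in replicate 1 (exact conditional 95% interval 2.98 to 11.2) and 4.73-fold in replicate 2 (3.48 to 6.54).

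Among the peripheral subunits that attach through Gemin8, Strap (ENSMUSG00000030224; chromosome 6, 137735082 to 137751930) stood apart. Its 268 and 638 footprints on a coding sequence of 1053 nucleotides gave densities of 136 (120 to 154) and 115 (106 to 124). The mean of 126 ± 15.0 (SD, n = 2) was at percentile 87.7 of coding genes, and Strap alone carried 51.1% and 42.3% of all footprints on the 9 genes. Strap exceeded Smn1 in both libraries, 3.11-fold (2.38 to 4.10) in replicate 1 and 2.08-fold (1.79 to 2.41) in replicate 2.

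Gemin7 (ENSMUSG00000044709; chromosome 7, 19564949 to 19573343) has the shortest coding sequence of the 9 genes, 390 nucleotides. It had 25 and 104 footprints and densities of 34.3 (22.2 to 50.7) and 50.7 (41.4 to 61.4), a mean of 42.5 ± 11.6 (SD, n = 2). With the highest transcript only, the mean density of Gemin7 was 10.4. Its density relative to Smn1 was 0.783 (0.475 to 1.25) in replicate 1 and 0.914 (0.720 to 1.15) in replicate 2, so the depth did not show a difference between them. When only transcripts annotated as protein coding were counted, the order of these 2 genes turned, with a mean density of Smn1 0.631 times that of Gemin7.

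Gemin6 (ENSMUSG00000055760; chromosome 17, 80207504 to 80228497), whose protein pairs with that of Gemin7, had 19 and 45 footprints on 501 coding nucleotides. Its densities were 20.3 (12.2 to 31.7) and 17.1 (12.5 to 22.8), with a mean of 18.7 ± 2.29 (SD, n = 2). Gemin7 exceeded Gemin6 by 1.69-fold in replicate 1, with an interval of 0.894 to 3.25 that includes equality, and by 2.97-fold in replicate 2 (2.07 to 4.31). With the highest transcript alone counted for each gene this direction turned, to a ratio of mean densities of 0.806. Gemin7 had counts on 6 transcripts and Gemin6 on 2. Whether a fragment that matches several transcripts was counted on each is not given in the sources used here.

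Gemin8 (ENSMUSG00000040621; chromosome X, 166170454 to 166190512), the link between these subunits and SMN, had 22 and 53 footprints on 717 coding nucleotides. The densities of 16.4 (10.3 to 24.9) and 14.0 (10.5 to 18.4) gave a mean of 15.2 ± 1.69 (SD, n = 2), and 15.2 was also the median over the 9 genes. Gemin6 and Gemin8 were not distinguishable at this depth, with ratios of 1.24 (0.633 to 2.39) and 1.22 (0.798 to 1.84) in replicates 1 and 2. Smn1 exceeded Gemin6 by 2.16-fold and 3.25-fold and Gemin8 by 2.67-fold and 3.95-fold, and the interval of each of these 4 ratios lay above 1. These intervals hold for all transcripts summed. With the highest transcript only, the mean of Gemin6 relative to Smn1 was 0.677, beside 0.385 as summed, and no interval was computed there.

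Ddx20 (ENSMUSG00000027905; chromosome 3, 105678270 to 105687788), the helicase, had 39 and 133 footprints on 2478 coding nucleotides. Its densities of 8.43 (5.99 to 11.5) and 10.2 (8.54 to 12.1) had a mean of 9.32 ± 1.25 (SD, n = 2). Gemin4 (ENSMUSG00000049396; chromosome 11, 76210571 to 76217572), its binding partner, had 8 and 34 footprints on 3177 coding nucleotides, and densities of 1.35 (0.582 to 2.66) and 2.03 (1.41 to 2.84). Of the coding genes tested, 2.64% had a mean density below that of Gemin4, at 1.69 ± 0.484 (SD, n = 2). The filter on counts leaves out genes of such low density unless their coding sequences are long. This share is therefore not one of all coding genes. Ddx20 exceeded Gemin4 by 6.25-fold (2.88 to 15.5) in replicate 1 and by 5.02-fold (3.42 to 7.54) in replicate 2. Smn1 exceeded Gemin4 by 32.5-fold (15.6 to 78.2) and 27.3-fold (19.0 to 40.2).

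Gemin5 (ENSMUSG00000037275; chromosome 11, 58120001 to 58168554), the subunit that recognises small nuclear RNA, has the longest coding sequence, 4512 nucleotides. It had 60 and 197 footprints, more than any member but Strap and Smn1. Per length, its densities of 7.12 (5.44 to 9.17) and 8.30 (7.18 to 9.54) placed it eighth, with a mean of 7.71 ± 0.830 (SD, n = 2) at percentile 22.0 of coding genes. Gemin5 and Ddx20 had like densities, with Ddx20 at 1.18 (0.770 to 1.80) and 1.23 (0.979 to 1.54) times Gemin5, and both intervals include equality.

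Set against Smn1 as the common reference, the mean of the replicates was 2.59 ± 0.729 for Strap, 0.848 ± 0.0927 for Gemin7, 0.385 ± 0.110 for Gemin6 and 0.314 ± 0.0858 for Gemin8 (SD, n = 2). It was 0.196 ± 0.0217 for Gemin2, 0.188 ± 0.00584 for Ddx20, 0.156 ± 0.00902 for Gemin5 and 0.0337 ± 0.00419 for Gemin4. Footprint densities of the subunits thus spanned from above Smn1 to a small part of it. The values are footprints per length of coding sequence; RNA abundance and protein amounts were not analysed here. How transcripts are counted changed the sizes: the ratio of the mean densities of Smn1 to Gemin4 was 29.4 as summed, 15.9 with protein-coding transcripts only and 11.3 with the highest transcript only. The ratio of Strap to Smn1 was 2.53 as summed, 4.04 and 5.65 in these settings and 1.42 per transcript length. For Smn1 over Gemin2 it was 5.05 as summed, and 5.23, 3.74 and 7.02 in the same settings.

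Other values relative to Smn1 also moved by over 1.5 times. As means of the replicates with protein-coding transcripts only, Gemin8 stood at 0.575, Gemin5 at 0.287 and Gemin7 at 1.57 of Smn1. With the highest transcript only, Gemin6 stood at 0.677 and Gemin7 at 0.549, and per transcript length Gemin6 stood at 0.240. Only 3 of the 9 genes kept their place in the order with protein-coding transcripts only, and 5 kept it with the highest transcript only and per transcript length. Several densities were lower by over 1.5 times as well. Both with protein-coding transcripts only and with the highest transcript only, Gemin2 had a mean density of 5.13 and Ddx20 of 5.40. With the highest transcript only, Gemin5 had 3.03 and Gemin8 6.28. Per transcript length, Strap had 50.0, Gemin7 25.4, Gemin6 8.26, Gemin8 7.87 and Gemin2 5.02.

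The genes of the complex were set beside 25 genes of the same assembly pathway. Of the 9 members, 3 had a mean density above the median coding gene and 6 below it, while 22 of the 25 other assembly genes lay above it. The 3 members above were Strap, Smn1 and Gemin7, and with the highest transcript only Gemin6 stood above the median in place of Gemin7. The median density was 15.2 over the members, 9.83 over the 7 members other than Smn1 and Strap, and 72.0 over the 25 assembly genes. The cargo of the complex, the 8 Sm core genes, ran from 111 ± 9.09 for Snrpf to 461 ± 65.6 for Snrpn (SD, n = 2), with a median of 239; all 8 means lay above that of Smn1. Near-identical copies can share Sm fragments, as can Snrpb and Snrpn, whose proteins are closely related.

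Upstream of the complex, the methylosome modifies Sm proteins before they are handed to SMN. Its genes ran from 35.8 ± 1.01 for Prmt7, an arginine methyltransferase, to 94.6 ± 12.3 for Clns1a, the Sm protein chaperone pICln (SD, n = 2). Lsm10 and Lsm11, which replace Sm proteins in the U7 particle for histone mRNA processing, had densities of 26.9 ± 3.05 and 121 ± 13.2. Among genes for the cap, export and import of snRNPs, Tgs1, which hypermethylates the cap, was lowest at 11.6 ± 2.49 and Ncbp2, a cap-binding subunit, highest at 131 ± 26.2. Coil, the scaffold of Cajal bodies, had 15.2 ± 0.747 and Gar1, a small nucleolar RNP protein, 54.4 ± 0.410. Smndc1, a splicing factor with a Tudor domain related to that of SMN, had 47.0 ± 0.107, beside 49.7 ± 8.20 for Smn1. In all, 16 assembly genes lay above Smn1 and 9 below it.

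**Figure D2:**
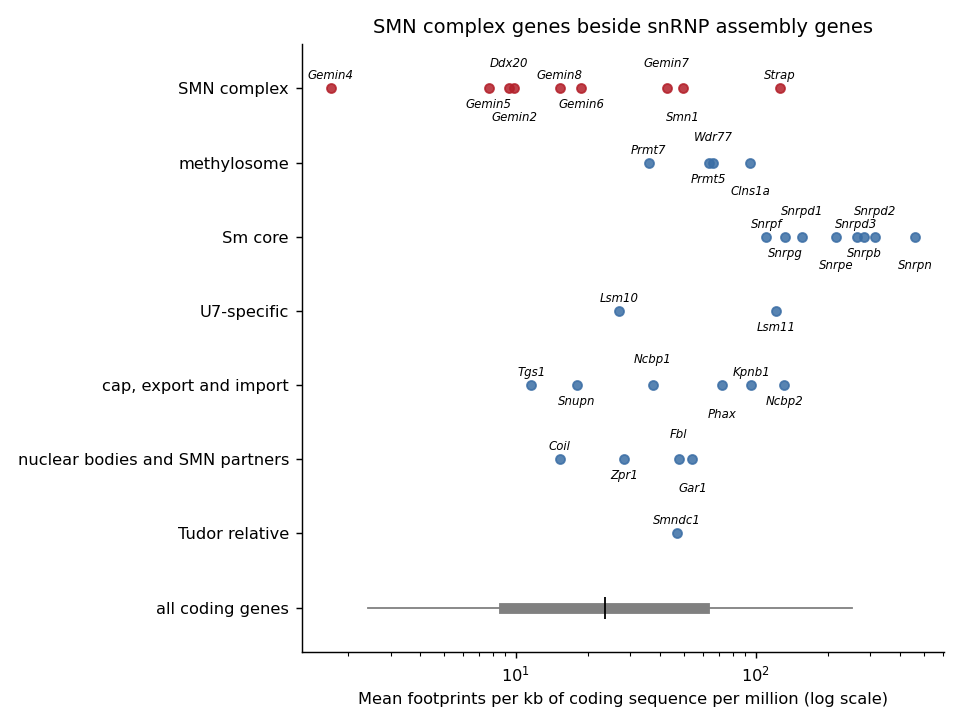
Mean density over both replicates (CPM per kilobase of coding sequence, log axis) of the 9 SMN complex genes (red) and of 25 snRNP assembly genes by role (blue), with the 5th to 95th percentile (line), quartiles (bar) and median (tick) of 13317 coding genes at the bottom. Strap at 126 reaches the range of the Sm core genes (111 to 461), while the 7 Gemin and Ddx20 genes lie between 1.69 and 42.5.

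Replicate 2 was set against replicate 1 for each gene by an exact binomial test (two-sided) on effective library sizes (TMM, trimmed mean of M values). Adjustment was by Benjamini-Hochberg over the 16427 genes whose count averaged 10 or more. The test compares 2 libraries of 1 group and covers counting noise alone. All 9 members passed the filter, and 1 of them, Strap, was called, beside 17.4% of all genes tested. Among the 491 genes with a total count within 10% of that of Strap, 216 were called. The share of all genes called lower in replicate 2, as Strap was, was 11.5%, and the share called higher was 5.95%. Strap had 144 CPM in replicate 1 and 121 CPM in replicate 2, a log2 ratio of replicate 2 over replicate 1 of -0.37 (95% interval -0.58 to -0.16; adjusted p = 0.00564, exact binomial test). The call was lost with library totals (log2 ratio -0.24, adjusted p = 0.0910, exact binomial test), where 0 members and 19% of all genes were called and 1 member had an unadjusted p under 0.05. It was also lost with the highest transcript alone (adjusted p = 0.0647, exact binomial test). The exact test of edgeR called 0 members and 0.067% of genes, with 0 members at an unadjusted p under 0.05. Its common dispersion was estimated from the same 2 libraries as replicates of 1 group, so their difference counts as noise by construction and few calls can arise.

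For the other 8 members the interval of the log2 ratio included 0. Smn1 had a log2 ratio of 0.21 (-0.17 to 0.61), an interval that includes differences of either sign. Gemin7, Gemin2 and Gemin4 had ratios of 0.42 (-0.21 to 1.13), 0.41 (-0.49 to 1.48) and 0.43 (-0.67 to 1.79). Ddx20 and Gemin5 had 0.15 (-0.38 to 0.70) and 0.09 (-0.33 to 0.54), and Gemin6 and Gemin8 had -0.36 (-1.18 to 0.48) and -0.34 (-1.09 to 0.44). The median over the 9 genes was 0.15, beside 0.01 over all genes tested, and 6 were above 0. With library totals the medians were 0.27 and 0.13, and the same number was above 0. Depth limits what could be called: among genes with a total count within 10% of that of Gemin4, the smallest called rise was 2.19 and the smallest called fall -1.14 on the log2 scale. For counts like that of Smn1 these were 0.52 and -0.46.

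**Figure D3:**
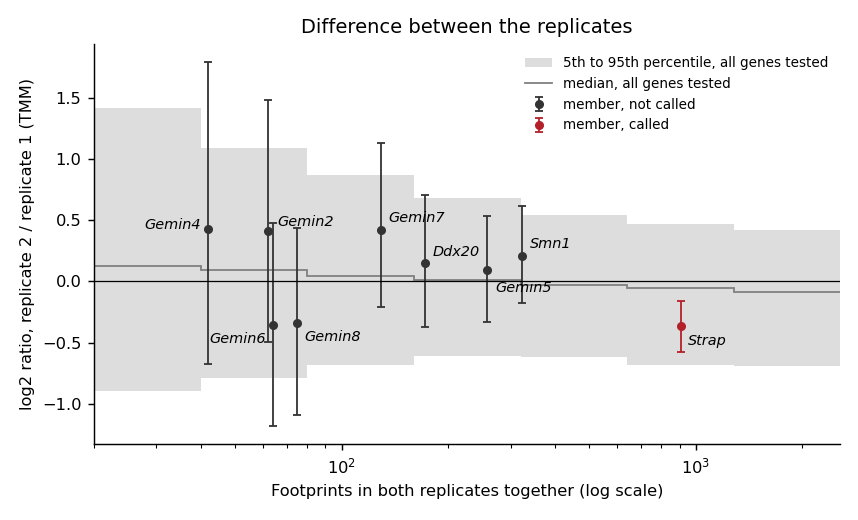
Log2 ratio of replicate 2 over replicate 1 (TMM scaling) against the footprints of both replicates together (log axis) for the 9 genes, with exact 95% intervals; the band spans the 5th to 95th percentile of all genes tested in each range of counts, and the grey line is their median. Strap (red, called) is at -0.37, and the intervals of the other 8 genes cross 0.

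Of the 25 assembly genes, 9 were called by the same exact binomial test, 8 lower and 1 higher in replicate 2. Of all genes tested, 17.4% were called, 11.5% lower and 5.95% higher. Genes with more counts were called more often. Within 10% of the total count of Strap, 906, 216 of 491 genes were called. Within 10% of that of Gemin4, 42, 13 of 687 were. The share over all genes is therefore not one for genes of like count. The 9 called assembly genes had total counts from 367 for Snrpd1 to 2263 for Snrpn. The lower ones were Snrpb, Snrpn, Snrpd1, Snrpd2 and Snrpd3 of the Sm core, Clns1a, Lsm11 and Kpnb1, the import receptor importin beta. Their log2 ratios ran from -0.79 for Snrpd2 to -0.34 for Kpnb1, and the 1 higher gene was Snrpe at 0.87. The median over the list was -0.17. The exact test of edgeR called 0 of the 25, with 2 at an unadjusted p under 0.05. Library totals gave 7 calls, 5 lower and 2 higher, where 7.47% of all genes were called lower and 11.5% higher; Zpr1, an SMN-binding zinc finger protein, was then called higher at 0.66.

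Smn1 footprints were spread over all 9 of its annotated transcripts. The coding transcript Smn1-001 (ENSMUST00000022147; 1222 nucleotides, with 42 of 5′ untranslated region, 867 of coding sequence and 313 of 3′ untranslated region) led with 28 and 96 footprints. Of the Smn1 footprints it held 39.4% (28.0 to 51.7) in replicate 1 and 37.9% (31.9 to 44.2) in replicate 2, with exact Clopper-Pearson 95% intervals, a mean of 38.7% ± 1.05 (SD, n = 2). The second coding transcript, Smn1-008, is a fragment of 485 nucleotides annotated as coding throughout, with 10 and 33 footprints, or 14.1% and 13.0%. The third, Smn1-003, with 120 coding nucleotides, had 2 and 3 footprints. Together the 3 coding transcripts held 54.3% ± 2.94 of Smn1 footprints (SD, n = 2).

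A further 5 transcripts of Smn1 are annotated as retained introns and held 36.2% ± 1.37 of its footprints (SD, n = 2). Smn1-005 was the largest of them, with 11 and 35 footprints (15.5% and 13.8%), followed by Smn1-002 with 7 and 23 (9.86% and 9.09%). Smn1-009 had 3 and 19 footprints, Smn1-007 had 4 and 15, and Smn1-010 had 0 and 2, where a count of 0 in replicate 1 allows a share of up to 4.23%, taken as 3 of 71 footprints (the two-sided Clopper-Pearson limit is 5.06%). Smn1-006, annotated as a target of nonsense-mediated decay, the pathway that removes mRNAs with early stop codons, had 6 and 27 footprints (8.45% and 10.7%). Each share lay inside the interval of the other replicate's share for the transcripts with at least 10% of the footprints.

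Per length of transcript, the 5 transcripts with the most footprints lay closer together than in counts. Smn1-001 had 12.3 and 14.9 CPM per kilobase of transcript in replicates 1 and 2, and Smn1-008 had 11.0 and 12.9. The retained-intron transcript Smn1-005 had 9.22 and 10.4, Smn1-002 had 8.28 and 9.65, and Smn1-006 had 7.63 and 12.2. Smn1-007 had 3.57 and 4.75 and Smn1-010 had 0.911 in replicate 2. Transcripts of a gene share exons and the treatment of fragments that match several of them is not given in the sources used here, so a count on a transcript is not a measure of ribosomes on that isoform alone.

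**Figure D4:**
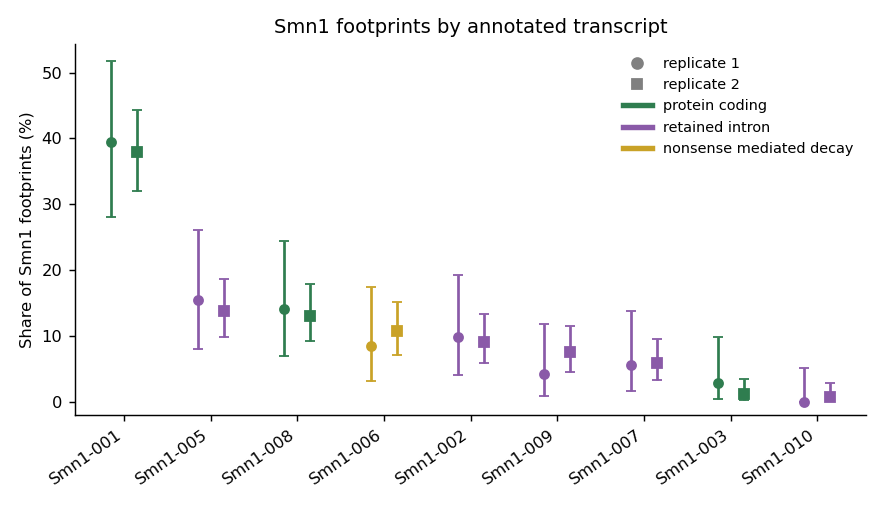
Share of Smn1 footprints (%) on each of its 9 annotated transcripts in replicate 1 (circles) and replicate 2 (squares), with Clopper-Pearson 95% intervals, coloured by annotated class. Smn1-001 holds 39.4% and 37.9%, and the intervals of the replicates overlap for each transcript.

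Other members showed how footprints were divided among transcripts with coding sequences of like length. Gemin7 has 6 coding transcripts, of which 5 have coding sequences of the same length, 390 nucleotides, and untranslated regions of different length. Those 5 had 3, 8, 4, 4 and 5 footprints in replicate 1 and 17, 20, 16, 17 and 22 in replicate 2, in the order Gemin7-001, 002, 004, 005 and 201, so each held between 14.2% and 25.6% on average. The 3 long coding transcripts of Gemin5, with 4506 to 4512 coding nucleotides, held 28.4% ± 0.0658 (Gemin5-002), 30.5% ± 0.682 (Gemin5-001) and 39.3% ± 1.01 (Gemin5-201) of its footprints (SD, n = 2). Gemin5-201, the largest share, also has the longest 3′ untranslated region of the 3, 1615 nucleotides against 327. Gemin8-003 held 41.2% ± 0.425 of Gemin8 footprints, while Gemin8-001 and Gemin8-002, whose coding length of 717 nucleotides is the same, held 13.4% ± 0.303 and 12.5% ± 1.64. Gemin8-004, with 559 coding nucleotides, held 19.9% ± 4.06. Here the larger share went with the shorter 3′ untranslated region, 304 nucleotides for Gemin8-003 against 1012 for Gemin8-001 and 1010 for Gemin8-002. Gemin7-002, the highest mean share of its gene, likewise has only 33. Whether the length of untranslated regions bears on these shares was not tested.

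Most Strap footprints were counted on a single transcript. Strap-001, the only coding transcript of Strap, held 86.2% ± 0.587 of the gene's footprints (SD, n = 2) with 232 and 547. Strap-002 and Strap-003, both processed transcripts with no annotated coding sequence, held 8.60% ± 0.0273 and 5.25% ± 0.560. Strap-001 is also the longest, at 2650 nucleotides against 505 and 331. Per kilobase of transcript the means were 43.1 CPM for Strap-001, 22.5 for Strap-002 and 20.9 for Strap-003. As with Smn1, a count on a transcript is not a measure of ribosomes on that isoform alone. Strap-001 was the 1 transcript called among the 25 of the 39 member transcripts that passed the filter, beside 5.08% of the 43655 transcripts tested (log2 ratio -0.38, adjusted p = 0.0213, exact binomial test). Its footprints are most of those behind the call of the gene, so this is not a separate result. With the highest transcript alone counted for each gene, the same counts were not called (log2 ratio -0.31, adjusted p = 0.0647, exact binomial test). All footprints of Gemin4 were on Gemin4-001; its other transcript, Gemin4-002, was at 0 in both libraries.

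Over the 9 genes, transcripts not annotated as protein coding received 19.3% of the footprints (16.0 to 22.9) in replicate 1 and 19.2% (17.3 to 21.3) in replicate 2. The genes differed among themselves. Smn1 had 45.7% ± 2.94 on such transcripts, Gemin2 had 46.8% ± 7.31 and Ddx20 had 43.2% ± 18.6 (SD, n = 2). The share of Ddx20 was 56.4% in replicate 1 and 30.1% in replicate 2. That of Gemin2 was all on transcripts annotated as retained introns, mainly Gemin2-002. Transcripts of a gene share exons, so these classes do not place footprints in introns. Beside these, the median over the 8044 genes tested with both kinds of transcript was 26.8%, with quartiles of 13.1% and 44.0%. Gemin6 had 30.6% ± 8.77, on the processed transcript Gemin6-002, and Strap had 13.8% ± 0.587. The single coding transcripts of Gemin2 and Gemin6, Gemin2-001 and Gemin6-001, held 53.2% ± 7.31 and 69.4% ± 8.77 (SD, n = 2). Gemin5 had 0.254% ± 0.359, and Gemin7 and Gemin8 have coding transcripts only.

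Ddx20 differed most between the replicates in this respect. Its coding transcript Ddx20-001 had 17 of 39 footprints in replicate 1, or 43.6% (27.8 to 60.4), and 93 of 133 in replicate 2, or 69.9% (61.4 to 77.6). Ddx20-004, annotated as a target of nonsense-mediated decay with 420 coding nucleotides, had 15 and 23, or 38.5% and 17.3%. Ddx20-002, annotated as a retained intron, had 7 and 17. A two-sided Fisher exact test of the leading transcript against the rest, adjusted over 10129 genes, gave Ddx20 an unadjusted p of 0.00410 and an adjusted p of 0.396. The test called 0 of the 8 members it could be run on, 1 of which had an unadjusted p under 0.05, beside 0.178% of all genes tested. Smn1, Gemin5, Gemin8 and Strap had leading shares within 2 percentage points in both libraries.

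**Figure D5:**
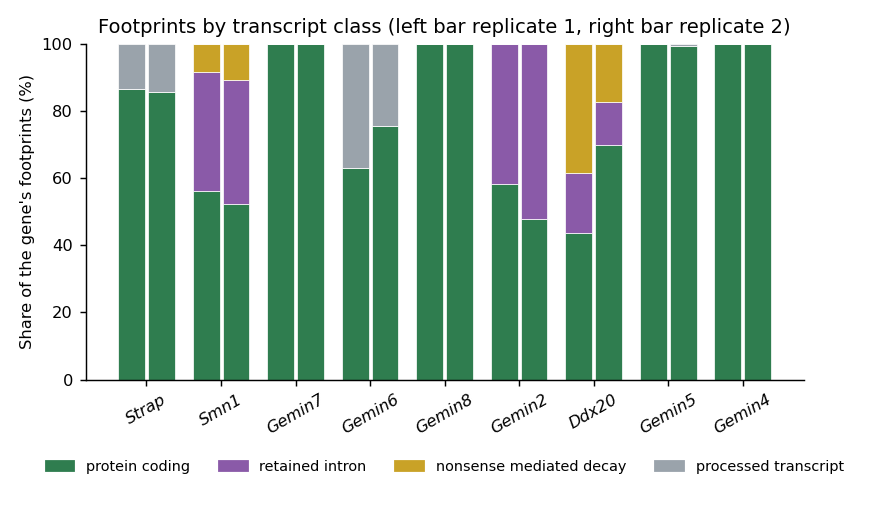
Share of each gene's footprints (%) by annotated transcript class, with replicate 1 as the left bar and replicate 2 as the right bar, in order of density. Smn1 and Gemin2 have large shares on transcripts annotated as retained introns. Ddx20 has one on a transcript annotated as a target of nonsense-mediated decay (38.5% and 17.3%), and Gemin7, Gemin8 and Gemin4 lie wholly on coding transcripts. The class is that of the annotated transcript and does not place footprints in introns.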

How the data were processed

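Footprints were counted in 2 brain polysome libraries, and fragments of 25 to 35 nucleotides had been selected per the labels' protocols. The authors deposited whole-number counts per transcript, not normalized, with annotated lengths. Trimmomatic 0.36, Bowtie2 2.2.6, SAMtools and the build GRCm38.p4 are named in the submitters' processing notes; the counter, the annotation release, strand use and the treatment of duplicates and of multiple matches are not given in the sources used here. Totals were 1866831 and 5261878, so a count of 0 allows 1.61 and 0.570 CPM, taking 3 counts as the floor.

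Counts were summed per gene. Density was the CPM on library totals per kilobase of the longest coding sequence. Replicates were compared with exact binomial tests (scipy 1.17.1) on TMM effective sizes (edgeR 4.0.16; factors 0.957 and 1.04, a shift of -0.13 in every log2 ratio) across all genes, with Benjamini-Hochberg adjustment, a threshold of 0.05 and log2 ratios with a prior of 0.5 CPM. Leading-transcript shares were compared with Fisher exact tests. A quasi-likelihood test was not fitted, since 1 group gives no contrast. Both tests were checked on simulated data drawn with counting noise alone. That check covers neither variation between animals nor the TMM scaling. DESeq2 1.42.0 size factors, library totals, other filters, priors, lengths and transcript choices were alternatives. All members were named, every Smn1 transcript, other transcripts with at least 10% of a gene's footprints, and the extremes and called genes of the assembly list; Strap-002, Strap-003, Gemin4-002 and Zpr1 fall outside this rule and were chosen after their values were seen. The members and lists were chosen with earlier results of these data known. The symbols of all 9 members were found in the RefSeq gene table. Protein sequences were not used here.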

Additional observations from a re-analysis of the deposited data

How the results depend on the processing

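No paired analysis was possible because the samples form 1 group. The number of members called was 1 with DESeq2 size factors, other count filters and protein-coding transcripts only, and 0 with library totals, the highest transcript only and edgeR's exact test, whose dispersion came from the difference between these same libraries. The number with a ratio above 0 was 5 or 6 in every setting; Gemin7 turned to a log2 ratio of -0.21 with the highest transcript only. Assembly genes called fell from 9 to 5 with the highest transcript only, to 0 with edgeR's exact test, which was added after seeing the data, and were 7 with library totals and 11 with a mean count of at least 50. The median member density of 15.2 moved to 7.95 per transcript length, 12.9 with protein-coding transcripts only and 6.28 with the highest transcript only, and was 14.0 and 16.4 with a single replicate. The median density relative to Smn1, 0.255, moved to 0.385 with protein-coding transcripts only and 0.304 with the highest transcript only. The Smn1-001 share of 38.7% became 71.4% of protein-coding transcripts and 20.2% with counts per nucleotide of transcript, both by construction, and was 37.9% and 39.4% in single replicates. The share on transcripts not annotated as coding, 19.3%, became 42.8% per nucleotide of transcript. No member's leading-transcript share was called by the Fisher exact test in any of the 3 settings. It could be run on 8 members in the main setting and on 5 under the stricter count filter of 50. When only coding transcripts were kept, it could be run on 4. At an unadjusted p under 0.05 there were 1, 1 and 0 members. Ddx20, the member under 0.05 in the main setting, has 1 coding transcript and could not be tested in the last setting. The 0 there is therefore no result for Ddx20. Strap was highest and Gemin4 lowest in all 6 density settings. Counts of 8 to 60 footprints in replicate 1 for the 7 genes other than Smn1 and Strap limit the precision of their levels. The cause of these changes was not tested unless stated.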

Other observations

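In the RefSeq gene table, 3 annotated genes overlap a member. Ttc39d overlaps Gemin6 by 2023 nucleotides and had 0 and 1 footprints in replicates 1 and 2. The other two are long non-coding RNAs that overlap Gemin4 by 860 and Gemin5 by 5976 nucleotides and were matched to no row by symbol, so their footprints were not analysed here.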
